A study of Mus musculus with 18 samples.

Results

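Chromosome 14 had the fewest chromatin loops per Mb of the 19 mouse autosomes in a Micro-C study of erythroblasts, and its loops and domains are described here. It was chosen by this measured density, so the density itself is a description and was not tested. All loops and all domains listed on the chromosome were taken, which gave 725 of the 20926 loops and 625 of the 13483 domains of the series. The series holds 18 Micro-C samples of the G1E-ER4 cell line, which are mouse erythroblasts, in a subline called LDB1-AID, in which LDB1 carries an auxin-inducible degron, a tag that lets auxin trigger its breakdown. The labels do not say whether the subline is 1 clone. Of these samples, 9 were untreated and 9 had auxin for 4 h, and both groups carried the tagged LDB1. The loop list and the domain list were each deposited once for the series, name no sample and hold only coordinates. Which samples they were made from is not given in the sources used here. No value therefore belongs to a sample or a treatment, the effect of auxin could not be measured, and the read depth behind a loop is unknown. The lists hold no expression values, so the cell type given by the labels was not checked against marker genes.

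In Micro-C, chromatin is digested to nucleosomes and the ends of neighbouring fragments are ligated, so that sequencing counts which sites were in contact. A loop is a contact between 2 distant sites, called anchors, that stands out above the local background. Many loops form where cohesin extrudes chromatin until it is held at CTCF sites, or where enhancers and promoters come together. LDB1 is an adaptor protein that pairs with itself and bridges distant sites bound by GATA1 and its partners in erythroid cells. A domain is a region within which contacts are enriched relative to contacts across its borders. Mouse autosomes have the centromere at one end, and chromosome 14 carries both erythroid genes, such as Slc25a37, which encodes the iron importer of mitochondria, and long gene-poor tracts with neuronal adhesion genes such as Pcdh9 and Pcdh17. These genes were not placed on the loops, because the files use build mm9 per the submitters' processing notes and the gene table used here is of GRCm38. For the same reason no sequence of an anchor is shown.

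The listed part of chromosome 14 ran from position 5905001 to position 124915000 (mm9), a length of 119 Mb. Over this length there were 6.09 loops per Mb. The next sparsest autosomes were chromosome 3 with 6.64 loops per Mb, chromosome 18 with 7.06 and chromosome 10 with 7.12. The mean over the 18 other autosomes was 8.77 ± 1.84 loops per Mb (SD over chromosomes), and the highest was 13.2 on chromosome 11. Chromosome 14 lay at -1.46 SD from the mean of the others, and its distance from chromosome 3 was smaller than 1 SD. The X chromosome, with 2.39 loops per Mb, was left out of these comparisons.

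The loops were not spread evenly along the chromosome. In fixed bins of 1 Mb counted from position 0, with each loop placed by the midpoint between its anchors, the 120 bins of chromosome 14 held from 0 to 41 loops, with a median of 2.50. The medians of the other autosomes lay between 4 and 11 loops per bin. The fullest 10% of bins held 39.3% of the loops of chromosome 14, against 32.9% ± 3.93 (SD, 18 autosomes), and all 18 other autosomes had a lower share. The bin with most loops lay from 55 to 56 Mb and had 41 loops. It was followed by the bins from 65 to 66 Mb with 31 loops, from 32 to 33 Mb with 30, from 52 to 53 Mb with 26, from 66 to 67 Mb with 24 and from 56 to 57 Mb with 21. The fullest bin was not low for an autosome, since 12 of the other 18 had a maximum below 41.

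**Figure D1:**
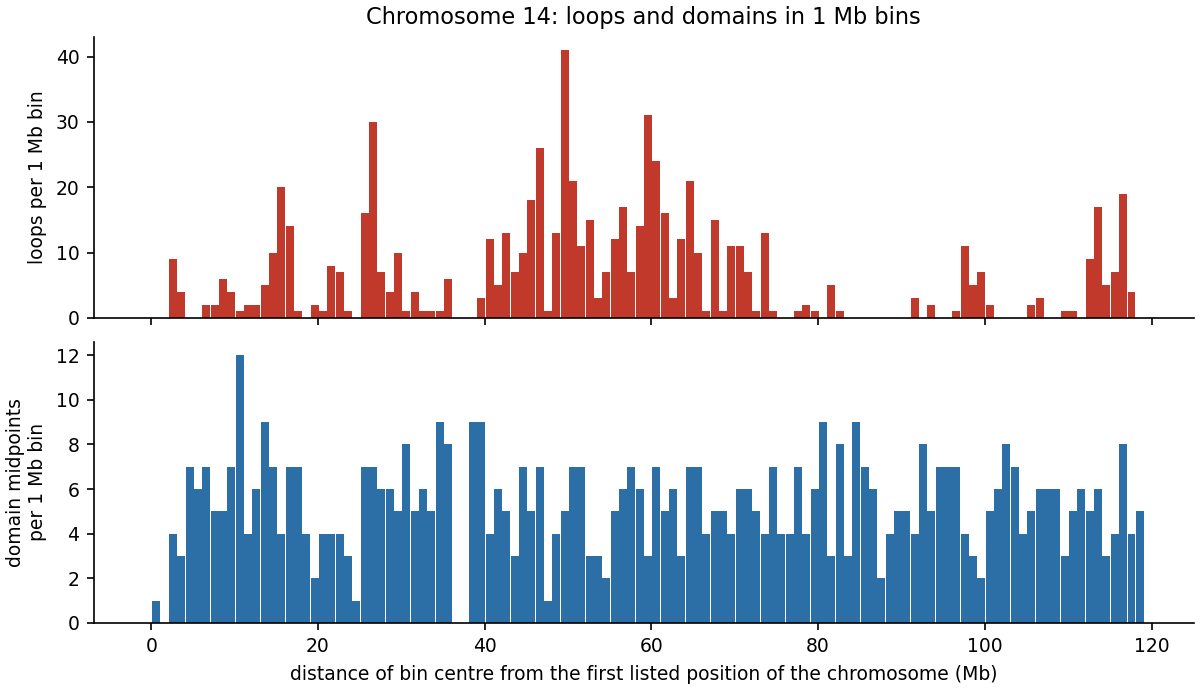
Loops (top, by midpoint between anchors) and domain midpoints (bottom) in each of the 120 bins of 1 Mb of chromosome 14, plotted against distance from the first listed position in Mb. Loops reached 41 per bin in the middle of the chromosome and were few in the distal part, where domain midpoints went on at a similar number per bin.

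Most loops lay in 1 central part. The looped blocks with the most loops, 339 and 95, were neighbours, and together they ran from position 45597501 to position 80067500. This central part made up 29.0% of the length and held 434 loops, which is 59.9% of the loops of the chromosome, at 12.6 loops per Mb. The proximal part before it, 39.7 Mb long, held 182 loops at 4.59 per Mb. The distal part after it was 44.8 Mb long and held 109 loops at 2.43 per Mb. The limits of these parts were taken from the loops themselves, so the differences in density are a description. Spans also bear on the limits, since a block runs over whole loops from anchor to anchor. Their median was 160 kb in the central part (quartiles 90 and 305 kb) and 160 kb in the proximal part. In the distal part the median span was 290 kb (quartiles 115 and 520 kb). There, 6.42% of the 109 loops were longer than 1 Mb, against 3.69% of the 434 in the central part. These are loops of 1 chromosome and no test was made between the parts. On the other autosomes, too, spans were longer in bins with fewer loops, as given below.

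To set this unevenness beside the other autosomes, a window of the length of the central part, 34.47 Mb, was moved along each autosome in steps of 0.1 Mb. The densest window of chromosome 14 had 12.6 loops per Mb, close to the middle of the other autosomes, of which 8 were lower and 10 higher (mean 13.7 ± 3.18, SD; range 9.34 to 20.6). The sparsest window had 46 loops, or 1.33 per Mb, and all 18 other autosomes had more, the nearest being chromosome 4 with 51 loops. The ratio of the densest to the sparsest window was 9.43 on chromosome 14. It was higher on 1 other autosome, chromosome 4 with 13.9, and the mean of the 18 was 3.76 ± 2.77 (SD). The window length was taken from the loops of chromosome 14 and is a larger part of a short autosome than of a long one, so these values are a description.

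**Figure D2:**
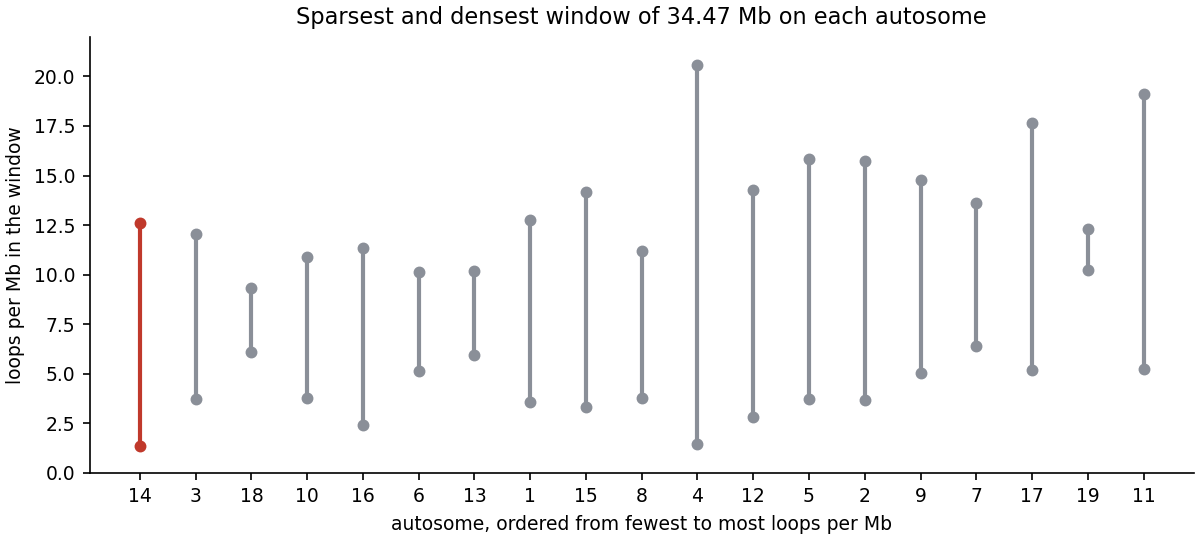
Loops per Mb in the sparsest and the densest window of 34.47 Mb on each of the 19 autosomes (points joined by a line), ordered by loops per Mb of the whole chromosome. Chromosome 14 (red) has the lowest sparsest window, at 1.33, while its densest window, at 12.6, lies among those of the others.

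A stretch without loops was defined as at least 1 Mb covered by no loop from the left end of its left anchor to the right end of its right anchor, counting the 2 ends of the listed chromosome. Chromosome 14 had 15 such stretches with a total of 38.5 Mb, or 32.3% of its length. The other autosomes had 28.1% ± 7.50 (SD) of their length in such stretches, 12 of them less than chromosome 14 and 6 more, up to 39.7% on chromosome 16. In number, 12.6 stretches per 100 Mb compared with 10.8 ± 2.92 (SD), and 13 of the 18 others had fewer. The median length was 1.91 Mb, against 2.19 Mb over the 253 stretches of the 18 other autosomes. The share, the number per 100 Mb and the median length each lay within 1 SD of the mean of the other autosomes.

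The longest stretch stood further out, at 1.14 SD above the mean of the longest on each other autosome (6.03 Mb ± 1.70, SD), and 15 of the 18 were shorter. It ran from position 89387501 to 97360000, had a length of 7.97 Mb and ranked 4 among the stretches of all autosomes, after those on chromosomes 16, 15 and 1 with 9.75, 8.47 and 8.28 Mb. The next ran from 107037501 to 111540000 and was 4.50 Mb long. The stretch from 41982501 to 45597500 (3.62 Mb) lay before the central part, and that from 80067501 to 83587500 (3.52 Mb) directly after it. The remaining ones among the 6 longest were 112290001 to 115200000, with 2.91 Mb, and the start of the listed chromosome, 5905001 to 8640000, with 2.73 Mb. The distal part contained 26.3 Mb of the stretches, and the central part 1.10 Mb.

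Between these stretches lay 14 looped blocks of very different density. The blocks above 10 loops per Mb were, in order, 8640001 to 9412500 with 13 loops, 30777501 to 35596000 with 67, the 2 blocks of the central part, and 118137501 to 123717500 with 61 loops near the distal end. The long proximal block from 11650001 to 29497500 had 88 loops in 17.8 Mb, or 4.93 per Mb, and the block from 36864001 to 41982500 had 14 loops in 5.12 Mb. Across the distal part, 7 blocks between 83587501 and 117110000 held 2 to 26 loops each. The sparsest of them had 2 loops between 115200001 and 117110000, or 1.05 per Mb. Over all blocks, chromosome 14 had 9.004 loops per Mb, below all 18 other autosomes (mean 12.1 ± 1.72, SD; lowest 9.59).

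Inside looped stretches, loops were below the mean density of the other autosomes by each of 3 definitions of such a stretch, and the rank differed between them. In bins with at least 1 loop there were 8.24 loops per Mb, below all 18 other autosomes (11.2 ± 1.77, SD; lowest 8.95). In bins with at least 5 loops there were 13.1 loops per Mb, and 3 of the 18 other autosomes were lower (14.95 ± 1.89, SD; range 11.5 to 18.5). Per Mb covered by loops the value was 10.5, and 1 other autosome, chromosome 13 at 10.3, was lower (13.6 ± 1.87, SD). The values for bins with 1 or more loops and for covered Mb each lay at -1.65 SD from the mean of the others. That for bins with 5 or more loops, a class itself set by loop count, lay at -0.999 SD. All 3 came from the loops that chose the chromosome, and none was tested.

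**Figure D3:**
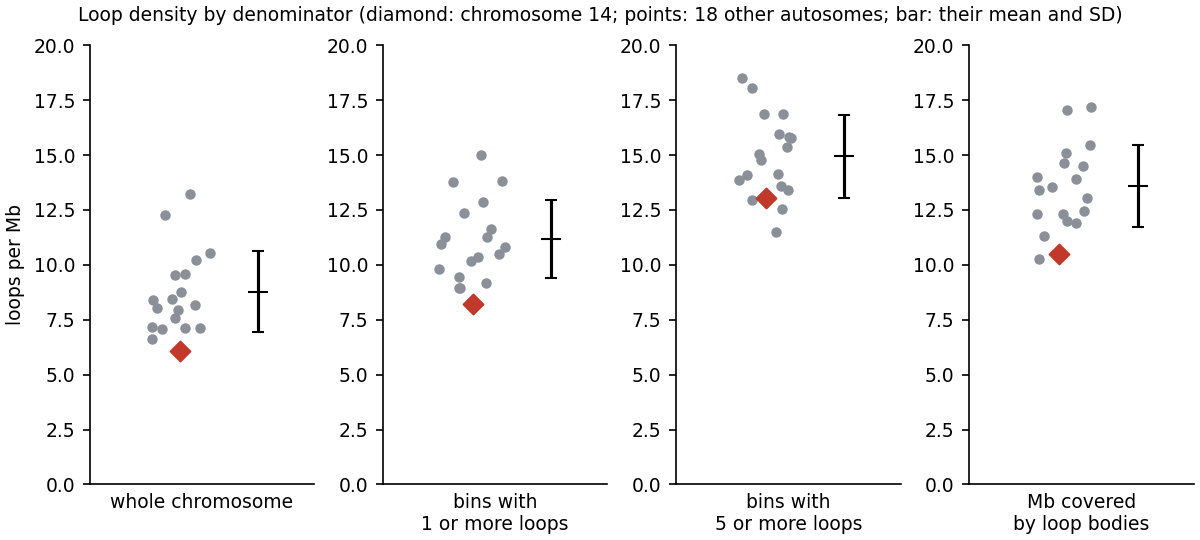
Loops per Mb of the whole chromosome, of bins with 1 or more loops, of bins with 5 or more loops and of the Mb covered by loops, for chromosome 14 (diamond) and the 18 other autosomes (points, with mean and SD). Chromosome 14 is lowest on the first and second scale, at 6.09 and 8.24, and lies above 3 other autosomes on the third, at 13.1.

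Bins with few loops separated chromosome 14 from the other autosomes more than bins with none. There were 32 bins without a loop, a share of 26.7% (95% Wilson interval 19.6 to 35.2%), and 14 of the 18 other autosomes had a smaller share (22.8% ± 5.73, SD). Bins with 1 to 4 loops numbered 38, or 31.7% (24.0 to 40.4%), above all 18 other autosomes (23.1% ± 4.26, SD; highest 29.4%). Bins with 5 or more loops made up 41.7%, below all 18 others (54.2% ± 7.96, SD; lowest 46.1%). There were 8 bins with 20 or more loops, or 6.67%, and 1 other autosome, chromosome 18 at 4.49%, had a smaller share. The Wilson intervals cover the counting of bins only. With the share of looped bins of the other autosomes and its own number of loops in each, chromosome 14 would have had 6.36 loops per bin in place of 6.04. With its own share of looped bins and the others' mean of 11.2 loops in each, it would have had 8.19, and with both 8.63. The same exchange over the length covered by loops gave 6.75 loops per Mb with the others' share and 7.88 with the others' density, in place of 6.09. The share thus moved the value more by this measure, and in both the density moved it further than the share. For bins with 5 or more loops, the exchange was not made. By that definition the order was the other way. The share of such bins was 0.769 times the others' mean, and the loops in each 0.874 times.

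**Figure D4:**
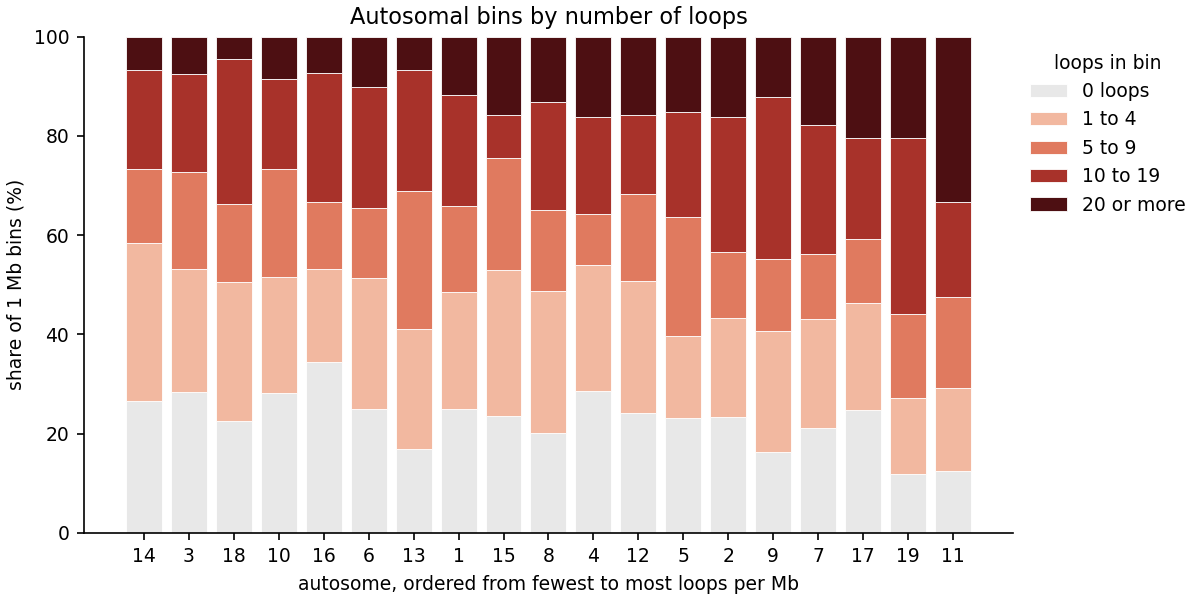
Share of 1 Mb bins with 0, 1 to 4, 5 to 9, 10 to 19 and 20 or more loops on each autosome, in order of loops per Mb. Chromosome 14, at the left, has 31.7% of bins with 1 to 4 loops, more than any other autosome, and 26.7% without a loop, fewer than 4 others.

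Loops on chromosome 14 were of a length near that on the other autosomes. The median span, between anchor midpoints, was 170 kb with quartiles of 90 and 340 kb, against a mean of 178 kb ± 20.8 (SD) over the other autosomes, 5 of which were lower and 12 higher. In an exact two-sided permutation of the chromosome label over the 19 autosomes, this distance from the mean gave p = 0.632, where the smallest p that 19 autosomes allow is 0.0526. Loops under 100 kb made up 29.4% (95% Wilson interval 26.2 to 32.8%) and 30 loops, or 4.14%, were longer than 1 Mb. No single domain held both anchors of any of the 5 longest loops. Most domains were too short to do so, since their upper quartile was 750 kb and the largest was 1990 kb. The longest joined positions 119370001 to 119380000 with 121330001 to 121340000, a span of 1960 kb, in a distal bin with 5 loops. The next, of 1855 kb, ran from 55182501, in the fullest bin, to 57047500. A loop of 1800 kb from 37640001 to 39450000 was the only loop counted in its bin. The other 2 ran from 49680001 to 51430000 (1740 kb) and from 76550001 to 78280000 (1720 kb). The shortest loop spanned 18 kb, from 27430001 to 27458000. On each other autosome the shortest loop also spanned 18 kb, and the longest spanned 1805 to 1995 kb.

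Median spans were lower in fuller bins. On chromosome 14 they were 260 kb in bins with 1 to 4 loops (72 loops), 210 kb with 5 to 9 (119 loops), 180 kb with 10 to 19 (320 loops) and 128 kb with 20 or more (214 loops). On the 18 other autosomes the means of the chromosome medians were 268, 230, 187 and 152 kb for the same classes, so the order was the same. In bins with 20 or more loops, the median of chromosome 14 was below those of all 18 others, which ran from 130 to 190 kb, while in the other classes it lay inside their range.

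Anchors lie on 3 coordinate grids, with steps of 2, 5 and 10 kb, and loops on the finer grids were shorter. Chromosome 14 had 138 loops on the finest (19.03%), 332 on the middle (45.8%) and 255 on the coarsest (35.2%). The first share compared with 20.2% ± 3.49 (SD) on the other autosomes (exact permutation p = 0.684). From fine to coarse, the loops had median spans of 72, 180 and 300 kb. The first 2 were below the means of the other autosomes, 79.1 and 196 kb, and the last was above theirs, 281 kb, all within the range of the others.

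Overlapping anchors were merged into 767 anchor regions, and the loops that meet at a region were counted. A region with 5 or more loops is called a hub. Of the regions, 449 had a single loop, a share of 58.5% (95% Wilson interval 55.0 to 62.0%), above all 18 other autosomes (51.6% ± 2.73, SD; highest 57.2%). There were 45 hubs, or 5.87% of regions, and 1 other autosome, chromosome 13 at 4.57%, had a lower share (7.91% ± 1.44, SD). No region had 10 or more loops, which was also so on chromosome 19. Hubs numbered 6.21 per 100 loops, against 7.60 ± 1.11 (SD). These values use the loops by which the chromosome was chosen and were not tested.

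**Figure D5:**
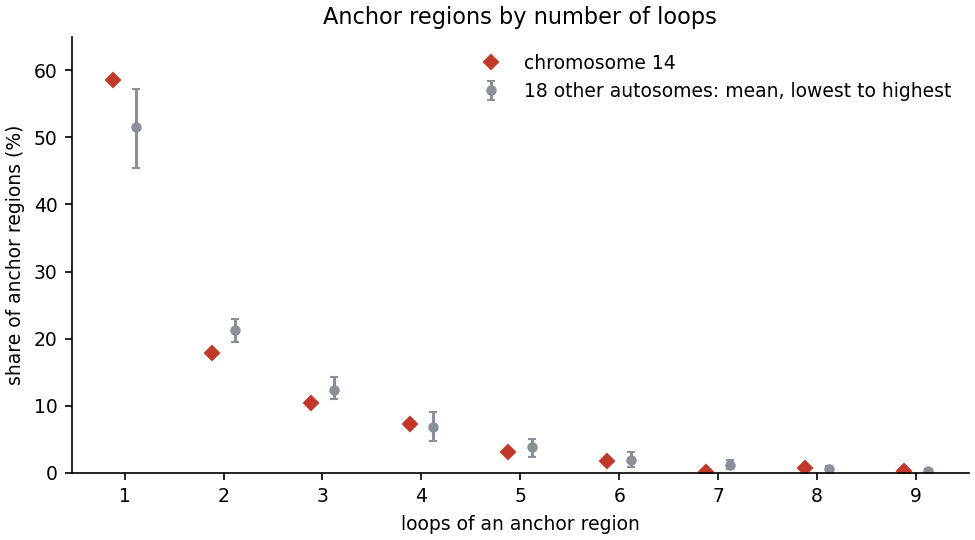
Share of anchor regions with 1 to 9 loops on chromosome 14 (diamonds) and on the 18 other autosomes (points show the mean, bars the lowest and highest chromosome). Regions with a single loop make up 58.5% on chromosome 14, above the highest of the others at 57.2%, and regions with 2 or 3 loops lie below their lowest.

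The central part held 29 of the 45 hubs, the proximal part 10 and the distal part 6. Of all 767 anchor regions, these parts held 440, 205 and 122. The limits of the parts were taken from the loops, so these counts are a description. The 45 hubs lay in 23 bins of 1 Mb, where 50 of the 120 bins held 5 or more loops. The hub from position 55622501 to 55652000 had 9 loops to 8 partner regions, 5 to higher and 4 to lower coordinates, with spans of 50 to 410 kb. It lay in the fullest bin of the chromosome, as did the hub from 55317501 to 55338000, which had 8 loops with a longest span of 475 kb. The hub from 65477501 to 65520000 also had 9 loops, but to 6 partner regions. Of its loops, 6 ran to higher coordinates, and their median span over all 9 was 120 kb. At 54840001 to 54862500, 7 of 8 loops ran to higher coordinates, and 5 of the 8 partner regions were hubs themselves.

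Some hubs had all their loops on 1 side. The hub from 65760001 to 65777500 had 8 loops, all to lower coordinates, with spans of 50 to 530 kb. At 73500001 to 73520000, 8 loops all ran to higher coordinates, with spans of 70 to 370 kb, and none of the 8 partners was a hub. In all, 20 of the 45 hubs (44.4%) were one-sided, and the share was 29.8 to 48.0% on the other autosomes. Outside the central part, the hub with most loops was at 119210001 to 119230000, with 4 loops to each side and spans of 82 to 610 kb. It tied in number of loops with 4 of the hubs named above and comes after them by position. Of the 45 hubs, 17 had their midpoint within 20 kb of a domain boundary. Among all 1187 distinct anchors of the chromosome, counted before merging, 309 (26.0%) did. A loop to another hub was found for 37 hubs. The counts of hubs near a boundary and of hubs with a loop to another hub are not given here for the other autosomes. Of all loops, 30.9% had a hub at 1 end or both, against 40.1% ± 5.20 (SD) on the other autosomes. Of these, 1 was lower, chromosome 13 at 27.5%. This share uses the loops that chose the chromosome and was not tested.

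Anchor regions that can be reached from each other by following loops make up a network, and chromosome 14 had 167 of them. The largest ran from 54676001 to 57047500 and joined 36 regions by 50 loops, with 8 hubs. The next largest were 24 regions and 33 loops from 49680001 to 52970000, and 24 regions and 34 loops from 65237501 to 66230000. All 3 lay in the central part. The largest network of the other autosomes had 27 to 75 regions, and that of 5 was smaller than 36. Networks of 10 or more regions held 54.1% of the loops of chromosome 14, and 1 other autosome had a lower share (62.0% ± 5.77, SD). Networks of only 2 regions held 13.8%, above all 18 other autosomes (8.94% ± 1.18, SD; highest 10.9%). Of the 725 loops, 627 (86.5%) had an anchor region in common with another loop, a share below all 18 others (91.4% ± 1.21, SD; lowest 89.1%).

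Domains were about as many per Mb as on the other autosomes. Chromosome 14 had 5.25 domains per Mb, against 5.22 ± 0.276 (SD), with 11 of the other autosomes lower and 7 higher (exact permutation p = 0.789). The proximal, central and distal parts had 5.27, 5.05 and 5.40 domains per Mb, although their loop densities were 4.59, 12.6 and 2.43 per Mb. In bins without a loop there were 4.88 domain midpoints per bin, and in bins with 5 or more loops 5.22. The other autosomes had 5.36 ± 0.676 and 5.16 ± 0.327 (SD) in the same classes. On chromosome 14, bins without loops from 5 to 6, 7 to 8, 42 to 43 and 43 to 44 Mb held no domain midpoint. They lower its value of 4.88 and were kept in it. The 2 longest stretches without loops were covered by domains over their whole length, with 40 and 23 domains lying wholly inside them. In some stretches domains were missing over part of the length. They covered 54.4% of the stretch from 41982501 to 45597500, 38.4% of that from 5905001 to 8640000 and 29.4% of that from 53112001 to 54210000. They covered 99.4% of the stretch at the distal end, from 123717501, and the whole of the other 11. The part of the missing domains in the absence of loops there was not tested.

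The median size of domains was 430 kb (quartiles 265 and 750 kb), against a mean of 413 kb ± 20.2 (SD) over the other autosomes (exact permutation p = 0.579). There were 99 domains over 1 Mb, or 15.8%, above all 18 others (12.8% ± 1.67, SD; highest 15.1%), a value that was not among those tested. Among the 234 domains that lay inside no other, the median was 740 kb, and 17 of the 18 other autosomes were lower (641 kb ± 56.2, SD; exact permutation p = 0.158). By part of the chromosome the median over all domains was 405 kb in the proximal, 435 kb in the central and 460 kb in the distal part. In bins without a loop it was 465 kb, and in bins with 5 or more loops 400 kb. The fuller bins thus differed by -65 kb, which compared with -68.0 kb ± 47.4 (SD) on the other autosomes.

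Domains that held both anchors of no loop numbered 346, or 55.4% (95% Wilson interval 51.4 to 59.2%), and 15 of the 18 other autosomes had a smaller share (48.0% ± 7.58, SD). A domain without a loop leaves every domain inside it without one, so the domains are not independent, as the interval takes them to be. The share of domains without a loop was 17.8% in the central part, 56.9% in the proximal part and 81.0% in the distal part. The limits of these parts were taken from the loops, so these differences, too, are a description. Of these 346, 155 lay wholly inside a stretch without loops of at least 1 Mb, and 191 did not. The largest was 91375001 to 93365000, 1990 kb in size and with 8 smaller domains inside it, within the longest stretch. It was followed by 106865001 to 108705000 with 1840 kb and 38055001 to 39735000 with 1680 kb. At the other extreme, the domain from 69695001 to 71170000 held 35 loops. Over all domains the mean was 2.26 loops per domain, and 1 other autosome was lower (3.09 ± 0.785, SD).

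Loops lay inside domains and near their boundaries about as often as on the other autosomes, within 1 SD of their means. Both anchor midpoints of 628 loops lay inside a single domain, a share of 86.6% against 85.7% ± 3.01 (SD; exact permutation p = 0.579). Of the 1187 distinct anchors, 309 had their midpoint within 20 kb of a domain boundary, a share of 26.0% against 26.6% ± 2.14 (SD; exact permutation p = 0.579). After Benjamini-Hochberg adjustment over the 6 results tested in this way, each p was 0.789. With 1 chromosome against 18, these tests could not pass 0.05, and they do not show that the values are equal. A loop that joined the start of a domain to its end, within 20 kb at both, was found for 21 of the 625 domains, or 3.36% (95% Wilson interval 2.21 to 5.08%). Of the other autosomes, chromosome 17 had a lower share, 2.97%, and the mean was 5.52% ± 1.34 (SD).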

How the data were processed

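The authors deposited a loop list and a domain list with the series of 18 samples. Both hold genome coordinates in bp, with no header and no value per sample. The build is mm9 per the submitters' processing notes; the callers, their settings and the samples used are not given in the sources used here. The number of columns of per-sample values without a sample was 0.

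Starts were read as counted from 0 and are printed counted from 1. Each 1 Mb bin that touched the listed part of a chromosome was used, at full width. Anchors overlapping by at least 1 bp were merged. Spread is the SD over the 18 other autosomes, and X was left out. Wilson intervals treat bins, loops, anchor regions or domains as independent and do not measure the spread between chromosomes. For 6 measures that did not choose the chromosome, the exact two-sided permutation test moved the chromosome label over the 19 autosomes and compared distances from the mean of the others. Functions were tested on simulated lists. Python 3.11.15, numpy 2.4.6, pandas 2.3.3, scipy 1.17.1 and matplotlib 3.10.9 were used.

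The named regions were the 6 hubs, stretches and bins highest in number or length, the 5 longest loops, the 3 largest networks and the 3 largest domains without a loop, with ties by lower coordinate. Other regions were named after their values were seen, as were the 3 parts of the chromosome and the moving window chosen. The chromosome, measures and lists were chosen with earlier results of these data known. Gene lists planned for an annotation of the files' build were not used here.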

Additional observations from a re-analysis of the deposited data

How the results depend on the processing

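Over 65 alternatives for 13 results, 48 left the value within 1 SD over the other autosomes (for counts, within 1.5 times, and for tests, on the same side of the mean). Adding X, or leaving out the sparsest and the densest other autosome, changed only the chromosomes compared with. For results without a test, these settings could not move the value of chromosome 14, yet they are counted in the 48. Loops per Mb were 1.16, 2.79 and 2.14 for the 2, 5 and 10 kb grids, since each grid holds only some of the loops; 2, 0 and 1 other autosomes were then lower. Stretches without loops numbered 23 from 0.5 Mb and 7 from 2 Mb. Loops per Mb inside looped stretches were 11.5 in bins with at least 3 loops, 13.1 with at least 5, 10.5 per covered Mb and 10.4 in bins of 0.5 Mb, with 2, 3, 1 and 2 other autosomes lower; the value stayed below all 18 with bins of 2 Mb and with each contact counted once. With X added, X alone was lower in loops per Mb, on the whole chromosome and in looped bins. Hubs numbered 0 with identical anchor coordinates, 74 with anchors within 10 kb merged and 0 at 10 or more loops. Domains that contained neither anchor of any loop made up 35.5%. The side of the mean reversed for the median span on the 10 kb grid (300.0 kb), for domains per Mb among domains holding no other (3.24) or inside no other (1.97), and for the median size of domains holding no other (290 kb); the cause was not tested. The exact permutation p ran from 0.158 to 0.95 over all tested results and alternatives. No paired analysis was possible because no sample has values of its own in either list, and the comparison of auxin with untreated samples, with or without a replicate block, was not run. An absent loop may lie below the callers' thresholds, and the unknown depth limits what it means.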

Other observations

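How often a loop shared an anchor region with another was also compared within classes of bins by number of loops. This comparison was chosen after the lower share over all loops was seen. A class does not match the number exactly. With 1 to 4 loops, chromosome 14 had 38 bins holding 72 loops, and the others had 537 bins holding 1216. In bins with 1 to 4 loops, 37 of the 72 loops of chromosome 14 shared an anchor region, or 51.4%, and 1 of the 18 other autosomes was lower (63.2% ± 9.04, SD). In bins with 5 to 9 loops the share was 83.2%, with 3 others lower, and in bins with 10 to 19 loops it was 90.3%, with 1 lower. In bins with 20 or more loops it was 94.4%, with 2 lower (96.0% ± 1.47, SD). In each class the share lay inside the range of the other autosomes and below their mean. Loops at a hub made up 9.24% in bins with 5 to 9 loops, where 2 others were lower (19.8% ± 7.49, SD), and 50.5% in bins with 20 or more, where 6 were lower. No test was made, since these values come from the loops that chose the chromosome.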
